A study of Mus musculus with 24 samples.

Results

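The chaperonin CCT is the large ring-shaped chaperone of the cytosol, and its messages were followed here through the 9 mouse genes Tcp1, Cct2, Cct3, Cct4, Cct5, Cct6a, Cct6b, Cct7 and Cct8. They were taken by gene name from the array's own annotation, which holds 36163 names on 55681 non-control probesets, and each of the 9 had 1 probeset. Hippocampal RNA came from C57BL/6 pups labelled male and killed at postnatal day 9, with 15 one-colour Agilent arrays in 3 groups of 5. Untreated controls (Con) received 0 mg/kg morphine and little handling. The other groups received morphine at 2 mg/kg (MS2) or 5 mg/kg (MS5) from postnatal day 5. Both also underwent daily isolation from the dam in a warmer and brief nitrogen apnea, each time followed by pure oxygen. The question was whether morphine given with this stress protocol altered hippocampal gene expression. A difference between a treated group and Con therefore covers morphine, isolation, apnea, oxygen and injection together, whereas MS5 versus MS2 sets dose against dose. Each array held RNA of 1 animal, and which pups were littermates is not given by array.

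CCT, also called TRiC, is built of stacked rings in which each position holds a different but related ATPase subunit. Newly made proteins enter the cavity and fold there as ATP is hydrolysed. Actin and the tubulins depend on it for folding, as do many proteins with WD40 propeller repeats such as G protein beta subunits. Prefoldin hands unfolded actin and tubulin to the ring, and phosducin-like proteins act with it as cofactors. In growing neurons, whose axons and dendrites need much tubulin and actin, as in dividing cells, the ring subunits are abundant. Tcp1 encodes the alpha subunit, Cct2 beta, Cct3 gamma, Cct4 delta, Cct5 epsilon, Cct7 eta and Cct8 theta. The zeta position is filled by the product of Cct6a in most tissues, and Cct6b encodes a zeta form known mainly from testis.

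Each level below is read by 1 probe of 60 bases, so the probe sequence fixes which stretch of the message was measured. The 5 probes on which the results turn are printed here as the array files give them, in the sense of the message and with positions on mouse build mm9. Cct3 is shown for the spot described further on, Cct2 for the lowest limma p in MS2, Cct6a for the largest MS2 difference among spots with no scanner mark, and Cct7 and Cct8 as the pair that moved most oppositely across arrays.
Cct2, chr10:116490137-116490196, minus strand: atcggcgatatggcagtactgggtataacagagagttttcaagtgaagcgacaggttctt
Cct3, chr3:88124479-88124538, plus strand: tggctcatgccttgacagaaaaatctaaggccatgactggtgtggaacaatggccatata
Cct6a, chr5:130300316-130300375, plus strand: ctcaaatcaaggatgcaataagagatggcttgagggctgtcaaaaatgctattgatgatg
Cct7, chr6:85417773-85418099, plus strand: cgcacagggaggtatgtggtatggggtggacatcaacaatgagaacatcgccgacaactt
Cct8, chr16:87485981-87486129, minus strand: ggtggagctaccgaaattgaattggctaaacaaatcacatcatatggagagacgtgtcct
The Cct7 probe covers 327 bases of the genome and the Cct8 probe 149, so both are interrupted by genomic sequence that the probe does not hold, whereas the other 3 match an unbroken stretch of 60. Their GC content ran from 40% (Cct6a) to 51.7% (Cct7), against a median of 43.3% over all probes. The remaining probes lie at chr17:13116096-13116155 on the plus strand for Tcp1, chr11:22901396-22901455 on the plus strand for Cct4, chr15:31520643-31520702 on the minus strand for Cct5 and chr11:82532762-82532821 on the minus strand for Cct6b. Values are log2 intensities after background adjustment and quantile normalization, and because probes differ in brightness, no level is compared between genes.

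Several arrays stood apart. The median spot signal was 100 to 128 on 14 arrays and 51.0 on MS2 replicate 5, where 67.1% of spots were well above background against 72.5% to 79.0% on the others. On MS2 replicate 4 the summed level of 8 markers of hippocampal neurons was 14.07 (log2) against 16.1 to 16.7 on the other 14 arrays, and markers of hypothalamus and thalamus, at 14.02, were the highest of the series, so this array went against its tissue label. MS5 replicate 9, labelled male, held Xist at 11.34 where the other arrays averaged 5.98, and the Y-linked Ddx3y at 6.24, where they averaged 11.26. Choroid plexus markers summed to 13.36 on MS5 replicate 14 and 16.03 on MS5 replicate 9 against 17.6 to 18.3 elsewhere. The arrays lay on 2 slides, each with arrays of all 3 groups. All 9 CCT probesets were well above background on 15 of 15 arrays and 0 were saturated.

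Group means of the CCT subunits differed little. Leaving Cct3 aside, the largest difference between any 2 groups was -0.18 on the log2 scale, at Cct6a in MS2. No subunit passed an adjusted p of 0.05 in any of the comparisons, nor did any probeset of the array. In MS5 versus Con 0 of the 9 subunits had an unadjusted limma p under 0.05, where 3.9% of all probesets did. In MS2 versus Con 1 subunit did, Cct2, which was lower, where 4.17% of all probesets passed and 2.12% passed as lower. In MS5 versus MS2 0 subunits passed, where 3.97% of all probesets did. With a change of over 1.5-fold added, the threshold used by the study, 0 subunits passed in each comparison (background 0.228%, 0.0233% and 0.129%). In no comparison were the arrays of 2 groups fully apart at a CCT subunit. Over all probesets, the first group lay wholly below the second at 0.519%, 0.393% and 0.383% and wholly above it at 0.309%, 0.309% and 0.239%, in the order MS5 versus Con, MS2 versus Con and MS5 versus MS2. Each subunit was also compared by a two-sided exact permutation test on the difference in means, with 252 assignments of 5 arrays against 5 and a smallest possible p of 0.00794. Of these 27 tests, 3 gave an unadjusted p under 0.05, at Cct2 in both treated groups and at Cct6b in MS5. By the same exact test 5.17% of all probesets passed in MS5 versus Con, 4.21% in MS2 versus Con and 3.85% in MS5 versus MS2. The 2 tests thus differ for Cct2 and Cct6b in MS5. Since whole tissue was used, fewer cells that express a subunit and less of its RNA per cell cannot be told apart.

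**Figure D1:**
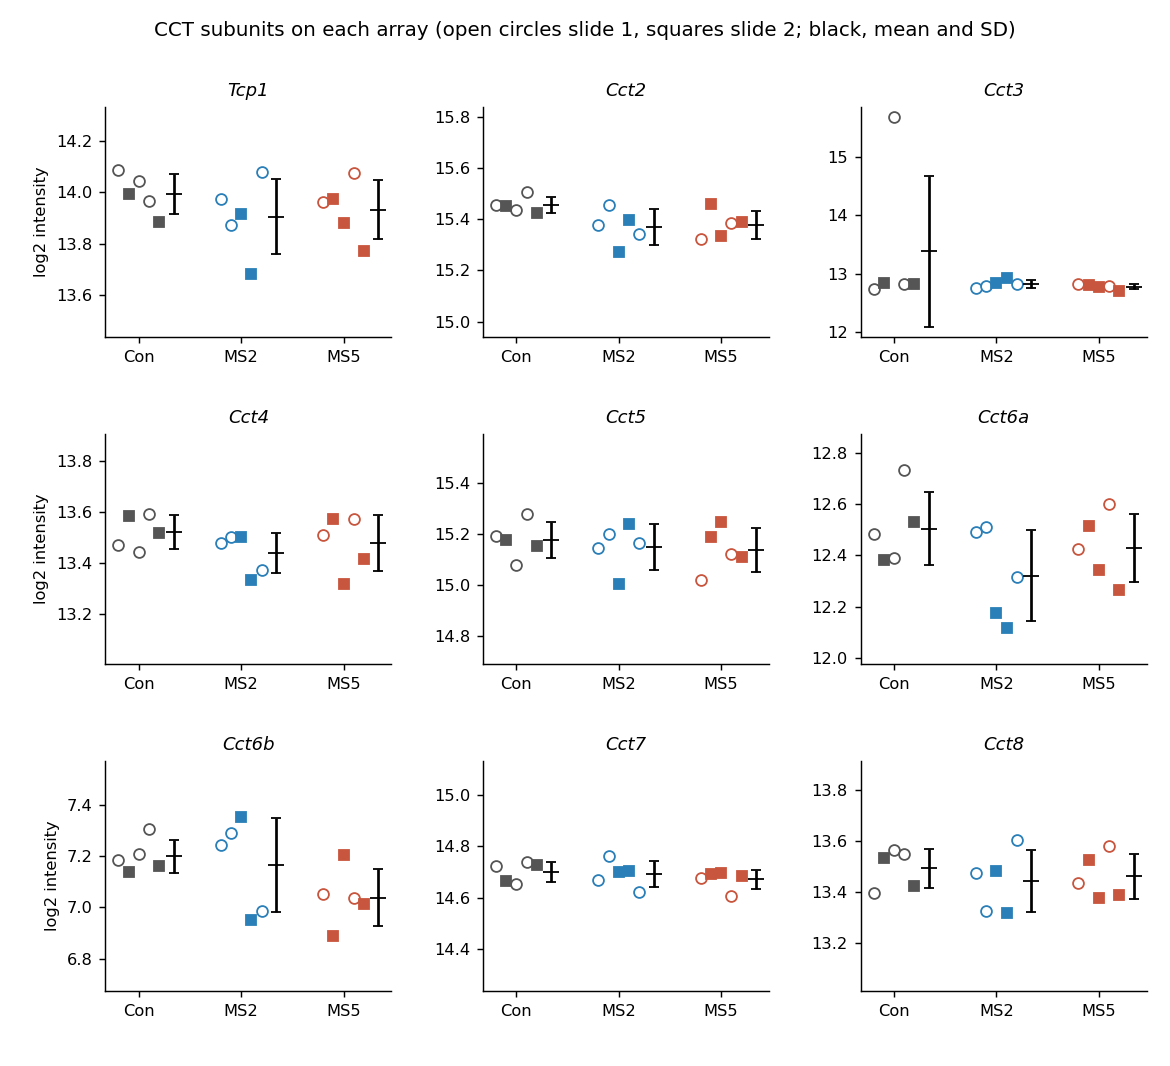
Level of each CCT subunit (log2 intensity, each panel on its own scale) on the 5 arrays of Con, MS2 and MS5, with open circles for slide 1, squares for slide 2 and black bars for mean and SD. The groups overlap in every panel, and 1 Cct3 point of Con, at 15.69, lies far above the other 14.

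Cct2, whose product is the beta subunit, had the smallest SD among control arrays, 0.0323. It was 15.46, 15.45, 15.44, 15.51 and 15.42 on the 5 control arrays (replicates 15 to 19). On the MS2 arrays it was 15.38, 15.46, 15.27, 15.40 and 15.34 (replicates 1, 3, 4, 5 and 7), and on the MS5 arrays 15.32, 15.46, 15.33, 15.39 and 15.39 (replicates 8, 9, 12, 13 and 14). In each treated group 4 of the 5 arrays were below the lowest control array, and the remaining one lay within the control range. The MS2 mean was 0.09 below Con on the log2 scale (a change of -5.78%, 95% interval -11.2% to -0.027%, exact permutation p = 0.0397, limma adjusted p = 0.970). The MS5 mean was 0.08 below Con (95% interval -10.6% to 0.604%, exact permutation p = 0.0397, limma adjusted p = 1.00), and this difference did not pass the unadjusted limma threshold. The MS2 call lay at the edge of the unadjusted limma threshold. Omitting each array in turn gave 15 fits, of which 4 passed. The difference was then lowest, at -0.11, without MS2 replicate 3 and nearest to 0, at -0.06, without MS2 replicate 4, the array that went against its tissue label. Blocking on the slide also ended the call, at an unmoved difference of -0.09. Without MS5 replicate 9, the array that went against its sex label, the MS5 difference was -0.10 and passed the limma threshold. This was the only 1 of the 15 fits with an array left out in which the MS5 difference passed. MS5 and MS2 differed by 0.01 (95% interval -0.08 to 0.09).

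Cct6a, the zeta subunit of most tissues, showed the largest MS2 difference among subunits with no scanner mark on a spot. Its control levels were 12.49, 12.38, 12.39, 12.73 and 12.53, in the array order given for Cct2. The MS2 levels were 12.49, 12.51, 12.17, 12.12 and 12.31, and the MS5 levels 12.42, 12.52, 12.34, 12.60 and 12.26. The lowest MS2 values were those of replicates 4 and 5, the array with few hippocampal neuron markers and the dim array, while replicates 1 and 3 were within the control range. The MS2 difference was -0.18 (a change of -11.9%, 95% interval -23.1% to 0.888%, exact permutation p = 0.127, limma adjusted p = 0.970). It was -0.10 within slide 1 and -0.31 within slide 2, where MS2 consists of replicates 4 and 5, and with the slide as a block, or within slide 2, it passed the unadjusted limma threshold. With 1 array left out it ran from -0.23 without MS2 replicate 3 to -0.13 without Con replicate 18, and it passed in 4 of 15 such fits. Without MS2 replicate 4 it was -0.15 and without MS2 replicate 5 it was -0.13. The MS5 difference was -0.07 (95% interval -0.27 to 0.12), and without Con replicate 18, the highest control array, it was -0.016.

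Cct6b, the zeta form known from testis, gave a low but measurable signal. On the control arrays it was 7.18, 7.14, 7.21, 7.31 and 7.16, on MS2 7.24, 7.29, 7.35, 6.95 and 6.99, and on MS5 7.05, 6.89, 7.20, 7.04 and 7.01. Of the MS5 arrays, 4 were below every control array and replicate 12 was inside the control range, whereas MS2 had 3 arrays at or above the control median and 2 below all controls. The MS5 difference was -0.16 (95% interval -20.4% to 0.559%, exact permutation p = 0.0317, limma adjusted p = 1.00). Fitted on Con and MS5 alone it passed the unadjusted limma threshold, which it missed in the fit of 3 groups, and without MS5 replicate 9 it was -0.12. MS2 differed from Con by -0.03 and MS5 from MS2 by -0.13 (exact permutation p = 0.230).

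Of the other 5 subunits with unmarked spots, 0 passed either test in any comparison. Tcp1, first described as a product of the mouse t complex, had a mean of 14.00 ± 0.0783 in Con, 13.91 ± 0.147 in MS2 and 13.93 ± 0.114 in MS5 (SD, n = 5 each). Its lowest array was MS2 replicate 5 at 13.68 and its highest Con replicate 15 at 14.09. Cct4 had means of 13.52, 13.44 and 13.48 in the same order. Cct5, of which a human mutation causes a sensory neuropathy, had means of 15.18, 15.15 and 15.14. Cct8 had means of 13.49, 13.44 and 13.46. Over Tcp1, Cct4, Cct5 and Cct8 the difference from Con ran from -0.06 to -0.03 in MS5 and from -0.09 to -0.03 in MS2. The interval of Tcp1, the widest of these, reached in MS2 from -15.5% to 4.47%.

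Cct7, the eta subunit, varied least. Its 15 values lay between 14.61 and 14.76, with means of 14.70 ± 0.0396 in Con, 14.69 ± 0.0512 in MS2 and 14.67 ± 0.0369 in MS5 (SD, n = 5 each). Its residual SD in the fit was 0.043, lower than that of all but 0.496% of the 5242 probesets within the level range of the bright subunits, where the median was 0.116. Its 95% interval for MS5 versus Con ran from -7.04% to 3.23%, and for MS2 versus Con from -5.72% to 4.70%. Cct2 followed with a residual SD of 0.054. Cct5, Cct4 and Cct8 had 0.083, 0.087 and 0.097, and Tcp1, Cct6b and Cct6a had 0.117, 0.130 and 0.153.

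The largest difference in the family, at Cct3, came from a single spot. Cct3 encodes the gamma subunit. On the control arrays it was 12.74, 12.84, 15.69, 12.83 and 12.82, the value of 15.69 being replicate 17. On MS2 it was 12.75 to 12.92 and on MS5 12.70 to 12.82. Replicate 17 was thus 2.89 on the log2 scale, or 7.40-fold, above the mean of the other 4 control arrays (12.81 ± 0.0471), and those 4 were within the range of the treated arrays. The scanner software had marked this spot as non-uniform, and it was the only marked spot among the 135 of the family. Its mean signal was 54504 against 2611 to 8461 on the other arrays, its median pixel 24282, and the SD over its pixels was 103% of the mean. On the other 14 arrays that SD was 7.13% to 10.4% of the mean at Cct3, and 11.6% to 27.6% at the other 8 subunits on all arrays.

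**Figure D2:**
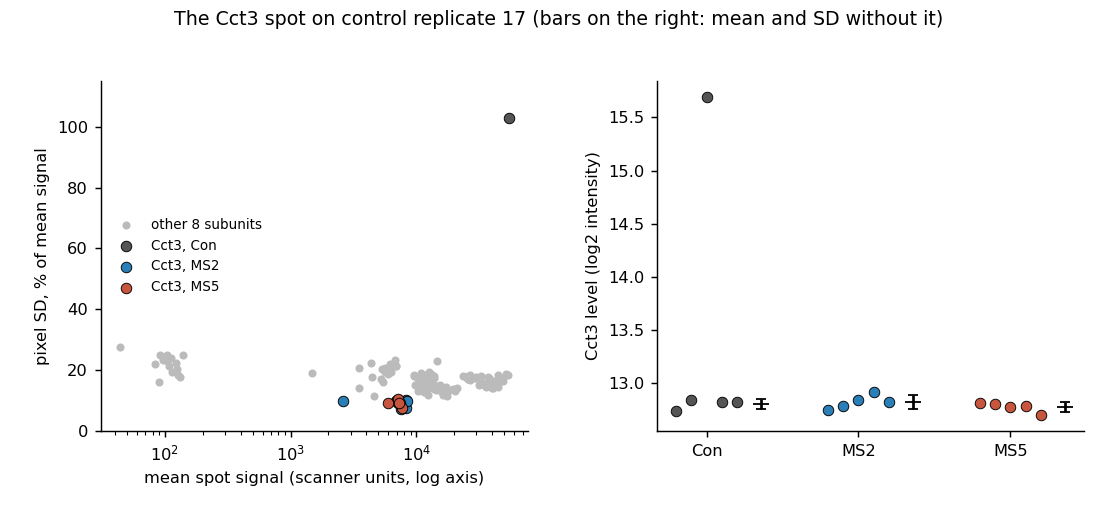
Left, pixel SD as a percentage of the mean signal (linear axis) against the mean spot signal (log axis) for Cct3, coloured by group, and for the other 8 subunits in grey. Right, the Cct3 level (log2 intensity) on each array with mean and SD computed without the marked spot. The marked spot of Con replicate 17 stands alone at 103%, and the 14 other Cct3 levels lie between 12.70 and 12.92.

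With that spot in the table, Cct3 was lower by 0.61 in MS5 (95% interval -1.52 to 0.31, exact permutation p = 0.214, limma adjusted p = 1.00) and by 0.56 in MS2 (exact permutation p = 0.683, limma adjusted p = 0.970). With the marked spot left out, MS5 differed from Con by -0.03 (95% interval -0.12 to 0.06, exact permutation p = 0.405) and MS2 by 0.017 (95% interval -0.07 to 0.11, exact permutation p = 0.675). The residual SD of Cct3 was 0.747 with the spot in.

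**Figure D3:**
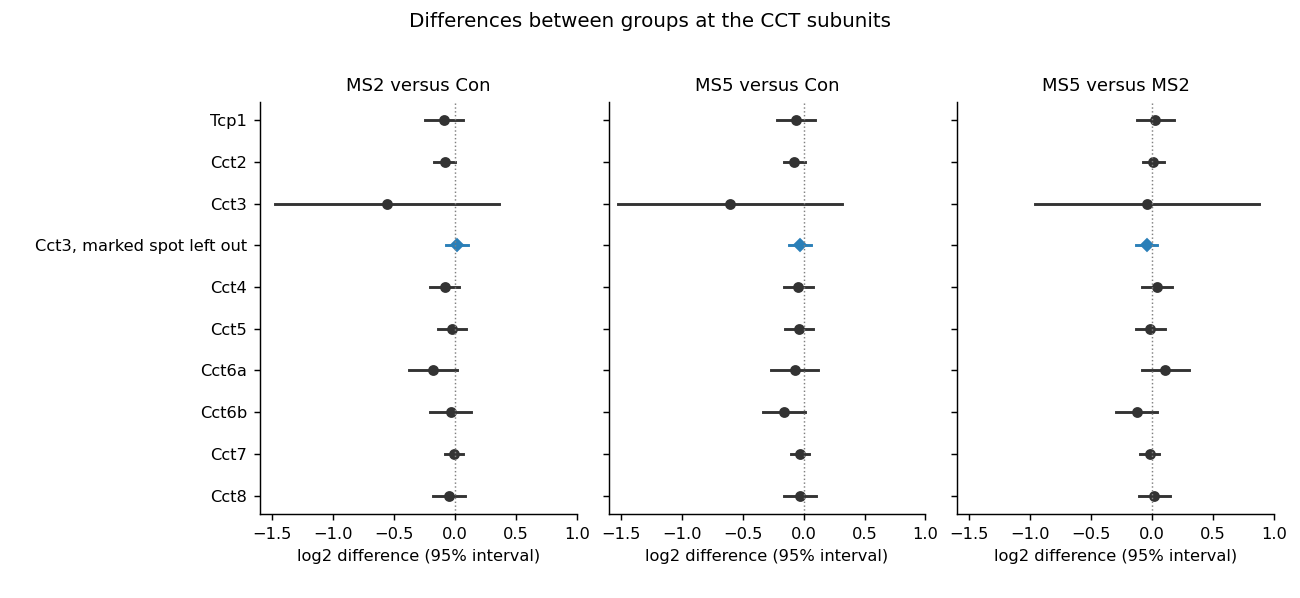
Log2 differences with 95% intervals for each CCT subunit in MS2 versus Con, MS5 versus Con and MS5 versus MS2. The Cct3 interval for MS5 versus Con, -1.52 to 0.31, shrinks to -0.12 to 0.06 once the marked spot is left out (blue), and the intervals of all other subunits but Cct2 in MS2 cross 0.

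All 9 subunits had a negative difference from Con in MS5, and all 9 in MS2, while MS5 versus MS2 had 4 negative and 5 positive, where 49.3% of all probesets were below 0. Both comparisons use the same 5 control arrays. Over all probesets 49.8% were below 0 in MS5 versus Con and 51.0% in MS2 versus Con. Within the level range of the bright subunits these shares were 54.6% and 54.1%, and 49.1% in MS5 versus MS2. The median difference over the 9 subunits was -0.06 in MS5 and -0.08 in MS2, against 0.00036 and -0.0017 over all probesets, and 0.0091 in MS5 versus MS2. With the marked Cct3 spot left out, 9 of 9 were below Con in MS5 and 8 of 9 in MS2. Within slide 1 the counts were 7 of 9 in MS5 and 9 of 9 in MS2, and within slide 2 they were 8 of 9 and 6 of 9. The shares of all probesets below 0 were taken in the fit of all arrays only, so these counts have no background of their own.

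The mean over the subunits was highest on 1 control array. Averaged over the subunits without Cct6b and without the marked spot, and each taken as a deviation from its own mean over the arrays, Con replicate 18 was at 0.105, and 0 of its 8 subunits was below its own mean, as on MS5 replicate 9. The other 4 control arrays were between 0.0086 and 0.034. The group means were 0.037 ± 0.039 in Con, -0.026 ± 0.040 in MS2 and -0.011 ± 0.057 in MS5 (SD, n = 5 each). Without Con replicate 18 the median difference was -0.03 in MS5, with 9 of 9 below Con, and -0.07 in MS2, with 7 of 9 below Con. The share of all probesets below Con was not taken for that fit. The MS2 median was nearest to 0, at -0.05, without MS2 replicate 5. The groups overlapped: MS5 replicates 9 and 13, at 0.048 and 0.047, were above 4 of the 5 control arrays.

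**Figure D4:**
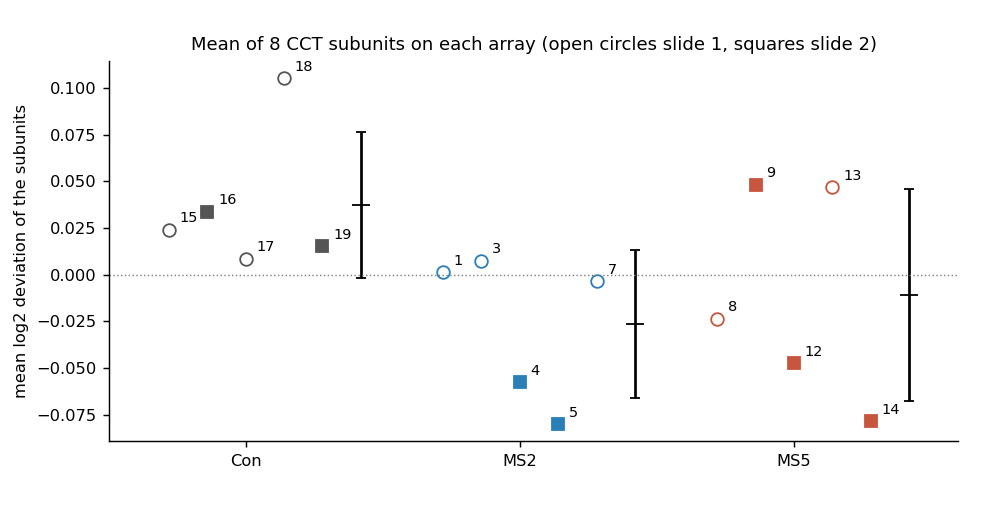
Mean log2 deviation of the CCT subunits (Cct6b and the marked Cct3 spot left out) on each array, labelled by replicate number, with open circles for slide 1, squares for slide 2 and bars for mean and SD. Con replicate 18 is the highest at 0.105 and MS2 replicate 5 the lowest at -0.080, and MS5 arrays lie on both sides of 0.

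The lowest arrays were MS2 replicate 5 (-0.080), the dim array, MS5 replicate 14 (-0.078), the array with the least choroid plexus signal, and MS2 replicate 4 (-0.058), the array with few hippocampal neuron markers. MS5 replicates 12 and 8 followed at -0.047 and -0.024. Markers of hypothalamus and thalamus summed to 14.02 on MS2 replicate 4 and to 13.41, 13.53 and 13.68 on MS5 replicates 14, 12 and 8, against 12.10 to 12.57 on the other arrays. MS2 replicate 5, with the lowest CCT mean, had a sum of 12.26. The genes of this list did not move together. In MS5 versus Con Avp (2.53), Oxt (1.79) and Trh (1.89) were higher, but Tcf7l2 (0.095), Lhx9 (-0.0034) and Prkcd (-0.11) differed little. As a description, the Pearson r of the summed level with the CCT mean was taken over the 15 arrays, which share their normalization. Over 10 marker lists it ran from -0.60 (Spearman rho -0.50) for hypothalamus and thalamus to 0.49 (rho 0.51) for meninges. For ciliated ependyma it was -0.54 (rho -0.35), from 3 genes on the array that differed in direction. In MS5 versus Con Spef2 was higher (0.59), and Foxj1 (-0.39) and Ccdc39 (-0.16) were lower. The r with the CCT mean was 0.30 (rho 0.05) for choroid plexus and 0.36 (rho 0.28) for hippocampal neurons. With the median spot signal of the array it was 0.22 (rho -0.09). The part of these markers, or of array brightness, in the CCT levels was not tested. On slide 1 the CCT mean was 0.046 in Con, 0.0018 in MS2 and 0.012 in MS5, and on slide 2 it was 0.025, -0.069 and -0.026.

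The subunits did not move as one across the arrays. Over the 15 arrays, which share their normalization, the most alike pair was Tcp1 and Cct8 (Pearson r = 0.75, Spearman rho = 0.76), followed by Cct4 and Cct6a (r = 0.69) and Cct2 and Cct5 (r = 0.61). The most opposed were Cct7 and Cct8 (r = -0.66, rho = -0.64) and Tcp1 and Cct7 (r = -0.47). After centring on group means Tcp1 and Cct8 stayed at 0.73 and Cct7 and Cct8 at -0.74. These are descriptions over 36 pairs within a narrow range of levels. The genes whose levels most resembled the mean of the subunits were Kdelc2 (r = 0.90), 9130008F23Rik (r = 0.89), Igfbp3 (r = 0.89) and 2 features without a gene symbol. Of 36148 genes, 66 had r above 0.8, and 80 did after centring on group means.

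Genes of the proteins that work with CCT were counted by list. Of the prefoldin genes, 5 of 6 were on the array and 0 passed an unadjusted limma p of 0.05 in MS5 or MS2, where 2.7% of all genes passed as lower and 1.5% as higher in MS5, and 2.31% and 1.72% in MS2. Their median differences were 0.04 and 0.06, and the largest MS5 difference was 0.16 at Pfdn1. Of 4 phosducin-like genes 0 passed in MS5 and 1 in MS2, namely Pdcl, a cofactor in G protein beta folding, at -0.19 (exact permutation p = 0.0238, limma adjusted p = 0.970). Its MS2 levels of 9.59 to 9.93 overlapped the control levels of 9.86 to 9.99 and were again lowest on replicates 5 and 4. Of the 6 genes that assist tubulin after its release from the ring, 0 passed in either group. Tbcc, the largest of them in MS5, was at -0.16 in MS5 (exact permutation p = 0.0794) and -0.14 in MS2 (exact permutation p = 0.0317, limma adjusted p = 0.970).

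Chaperones outside the ring were counted in the same way. Of all genes, 2.7% passed as lower and 1.5% as higher in MS5, and 2.31% and 1.72% in MS2. In MS5 versus MS2 these shares were 2.15% and 1.78%. Of the heat shock genes, 18 of 19 were on the array, 0 passed in MS5 and 1 passed in MS2. That gene was Hsp90ab1, a constitutive cytosolic HSP90, at -0.13 (exact permutation p = 0.0635, limma adjusted p = 0.970), and it too was lowest on MS2 replicates 5 and 4. The list medians were -0.0045 and -0.0073. Of the 3 chaperonin-like genes of Bardet-Biedl syndrome, whose products help CCT to assemble the BBSome, 0 passed in MS5 and 1 in MS2, Bbs10 at -0.13 (exact permutation p = 0.0556, limma adjusted p = 0.970). Mkks passed in MS5 versus MS2 alone, at 0.19 (exact permutation p = 0.119, limma adjusted p = 1.00). Without MS5 replicate 9 it was 0.10 and did not pass. Of 9 genes for WD40 proteins folded with help from CCT, 1 passed as lower in MS5 and 1 as lower in MS2. Of the same list, 1 passed as lower and 1 as higher in MS5 versus MS2. Rptor, a scaffold of the mTOR complex, was lower by 0.08 in MS5 than in Con (exact permutation p = 0.0238, limma adjusted p = 1.00). It was lower by 0.10 in MS5 than in MS2 (exact permutation p = 0.0159, limma adjusted p = 1.00). Its highest MS2 levels were those of replicates 5 and 4, at 12.36 and 12.33. The MS5 versus MS2 difference was -0.045 within slide 1, where it did not pass, and -0.16 within slide 2. Gnb5, a G protein beta subunit, was lower by 0.23 in MS2 (exact permutation p = 0.0317, limma adjusted p = 0.970). It was higher by 0.24 in MS5 than in MS2 (exact permutation p = 0.103, limma adjusted p = 1.00).

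Among the substrates, 1 tubulin gene stood out. Of the tubulin and actin genes 14 of 16 were on the array. In MS5 1 passed as lower and 0 as higher, where 2.7% and 1.5% of all genes did. In MS2 0 passed as lower and 1 as higher, where 2.31% and 1.72% of all genes did. The list median was -0.02 in each. Tuba1c, an alpha tubulin gene, was 12.74, 13.32, 13.19, 13.10 and 13.11 on the control arrays, 12.93, 13.17, 12.33, 13.12 and 12.51 on MS2, and 12.64, 12.08, 12.70, 12.41 and 11.90 on MS5. Every MS5 array was below every control array, as at 0.519% of all probesets, while MS2 overlapped both. The MS5 difference was -0.74 (95% interval -1.14 to -0.35, exact permutation p = 0.00794, the smallest it can give, limma adjusted p = 1.00), and the MS5 versus MS2 difference -0.47 (exact permutation p = 0.0794, limma adjusted p = 1.00). The 2 lowest MS5 arrays, replicates 14 and 9, were those with little choroid plexus signal, and the other 3 were still below all controls. The part of that tissue in the value was not tested. Alpha tubulin genes are close to identical in coding sequence, and cross-hybridization of this probe was not tested. The MS5 difference was -0.02 at Tuba1a, -0.08 at Tuba1b and -0.06 at Tuba4a.

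The other tubulins and both cytosolic actins lay between -0.13 and 0.13 in MS5. Tubb3, the beta tubulin of neurons, differed by 0.0031, Tubb5 by -0.05, Tubb2b by -0.12, Actb by -0.0145 and Actg1 by -0.0035. Tubg2, a gamma tubulin of microtubule organising centres, was higher by 0.25 in MS2 (exact permutation p = 0.0159, limma adjusted p = 0.970). Its level was 13.46 on MS2 replicate 4 and 12.83 to 12.98 on the other MS2 arrays, against 12.62 to 12.85 in Con, where the scanner had marked the spot of replicate 19. Without that spot the MS2 difference was 0.25 (exact permutation p = 0.0635), which still passed the unadjusted limma threshold, and without MS2 replicate 4 it was 0.13 and passed. In MS5 Tubg2 differed from Con by 0.13 (exact permutation p = 0.0159 with and without the marked spot) and did not pass the limma threshold.

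**Figure D5:**
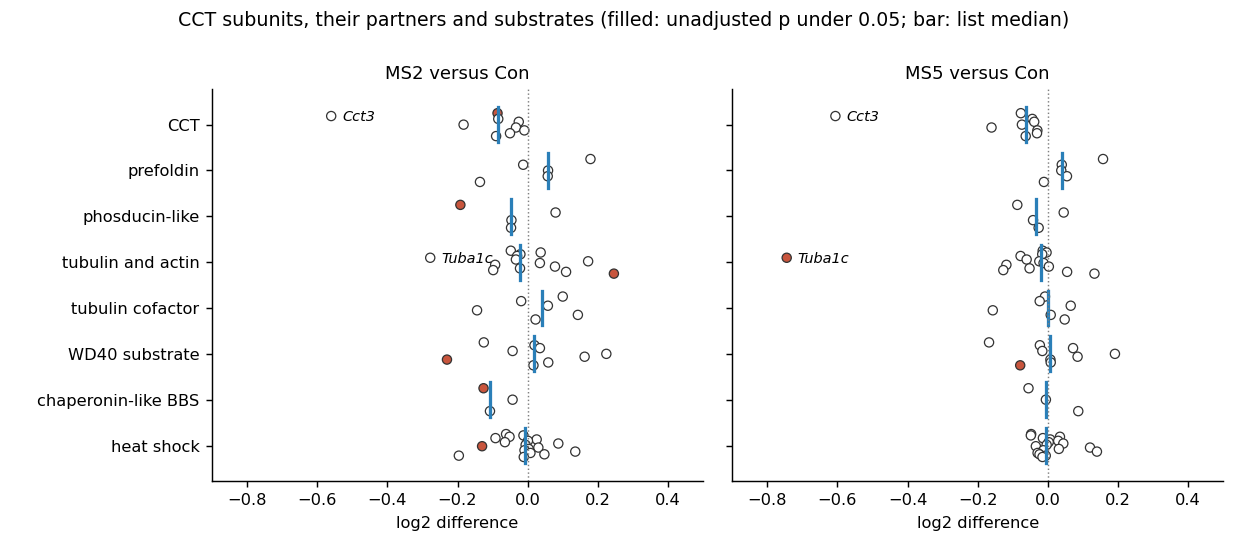
Log2 difference of each gene from Con in MS2 and in MS5, by list, with filled points for an unadjusted limma p under 0.05 and a bar at each list's median. In MS5 Tuba1c at -0.74 and Cct3, with its marked spot, at -0.61 lie farthest from 0.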

How the data were processed

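Hippocampal mRNA was measured on 15 Agilent arrays, and the miR arrays were not used here. The authors deposited intensity values for each spot from Feature Extraction 10.7.1.1, with the scanner's flags, and a table of log2 values, made with a normexp background step and quantile normalization. The log2 table was used as deposited, since a rebuild from the intensities (offset 50) matched it to 5e-09 at 55821 probes. It keeps marked spots and takes the first spot of a probe. Groups came from the labels and were compared with limma 3.58.1 (lmFit and eBayes, R 4.3.3) in 1 fit of the 3 groups over 55681 probesets, with Benjamini-Hochberg adjustment over all of them. Single genes were also compared by exact permutation, a test added after results were seen. Simulated data with known changes served to test the fit. For a gene with several probesets, one named A_51 or A_52 was preferred and otherwise the brightest. Likeness was computed over genes with at least 12 unmarked arrays. The number of arrays, 5 per group, limited the precision.

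Named genes were the 9 members, genes of each partner list with an unadjusted p under 0.05 or else the one with the largest MS5 difference, and the 5 genes most like the subunit mean. Xist, Ddx3y and the other tubulins and actins with printed values were chosen after their values were seen. Members and lists were chosen with earlier results of these data known. The alternatives were a rebuild with averaged spots, marked spots left out, an offset of 0, the processed signal scaled to the 75th percentile, a background filter, the slide as a block, each slide alone, array weights, only the groups compared, and each array left out. Leaving out MS2 replicate 4 with MS5 replicate 9 was chosen after seeing the data.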

Additional observations from a re-analysis of the deposited data

Results flagged for a closer look

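Within 27 sets of 5 arrays (9 subunits in 3 groups), 2 held a value whose gap to the nearest other value, over the range of the set, passed Dixon's critical value of 0.71, where chance marks about 1 in 20. Cct3 on Con replicate 17 was 15.692, with the nearest control array at 12.838 and a gap of 0.965 of the range. This is the spot with the non-uniform mark. Cct7 on MS5 replicate 13 was 14.606, with the nearest MS5 array at 14.676 and a gap of 0.791 of the range. The scanner had not marked that spot.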

How the results depend on the processing

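The number of subunits with an unadjusted p under 0.05 was 0 in MS5 versus Con, 1 in MS2 versus Con and 0 in MS5 versus MS2. In MS5 versus Con it was 1 with array weights, with only the 2 groups compared and without both arrays that go against their labels. In MS2 versus Con it was 0 at an offset of 0, with the processed signal, with only probesets well above background, within slide 1, with array weights, with only the 2 groups compared and without both of those arrays. With the slide as a block, and within slide 2, it stayed 1 but was Cct6a and not Cct2, where 2860 and 2930 of all probesets passed. In MS5 versus MS2 it was 1 with array weights, where 5395 of all probesets passed, against 2211 without weights. By the exact permutation test of each subunit, added after seeing the data, the counts were 2, 1 and 0, where 5.17%, 4.21% and 3.85% of all probesets passed. With each array left out in turn the counts were 0 to 1, 0 to 2 and 0 to 1. Over all probesets 1503 to 3298, 1634 to 3666 and 1535 to 3773 passed in those fits. Over all settings the smallest adjusted p of a subunit was 0.688, 0.711 and 0.509. The median over the 9 subunits moved by less than 0.053 in every setting. That is the SD between arrays of a group for the mean over 7 subunits (Cct3 and Cct6b left out). It is close in size to the medians from Con and does not measure the error of a difference. With 1 array left out the median ran from -0.08 to -0.03 in MS5 and from -0.09 to -0.05 in MS2. In MS5 versus MS2 it ran from -0.015 to 0.020.

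Signs of some differences turned under other settings. In MS5 versus Con they turned at Cct4 (0.040) and Cct8 (0.0039) within slide 1 and at Cct5 (0.018) within slide 2. In MS2 versus Con they turned at Cct3 with marked spots left out (0.017), at Cct3 (0.050), Cct6b (0.0040) and Cct7 (0.0083) within slide 2, and at Cct5 without both arrays (0.012). In MS5 versus MS2 they turned at Tcp1 (-0.029) and Cct2 (-0.0058) with array weights, at Cct2 with the processed signal (-0.026), within slide 1 (-0.038) and without both arrays (-0.036), at Cct3 with the slide as a block (0.012) and within slide 1 (0.018), and at Cct5 within slide 2 (0.061). Leaving out 1 array in turn gave, in MS2 versus Con, -0.72 to 0.017 at Cct3, -0.049 to 0.012 at Cct5, -0.080 to 0.020 at Cct6b and -0.027 to 0.0083 at Cct7. In MS5 versus MS2 it gave -0.029 to 0.071 at Tcp1, -0.015 to 0.031 at Cct2, -0.050 to 0.016 at Cct5 and -0.011 to 0.060 at Cct8. Apart from Cct3 in MS2 versus Con, where the difference rests on the marked spot, the cause was not tested. Cct6a in MS2 passed the unadjusted threshold with the slide as a block and within slide 2.

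Tuba1c in MS5 kept an unadjusted p under 0.05 in 27 of 27 fits, from -0.99 (within slide 2) to -0.48 (within slide 1). In MS2 Tubg2 kept it in 25, Pdcl in 24, Bbs10 in 19, Hsp90ab1 in 17 and Gnb5 in 14 of 27, and Rptor in MS5 in 12. In MS5 versus MS2 Rptor kept it in 22, Tuba1c in 21, Gnb5 in 16 and Mkks in 7. When a gene was read by the average of its probesets, the Bardet-Biedl list lost its 1 call in MS2 and the heat shock list gained 1 in MS5 versus MS2. The other counts over the partner lists did not move under either other rule for a gene's probeset. Over all probesets, those with an unadjusted p under 0.05 numbered 2173 in MS5 versus Con (1503 to 4339 over the settings), 2324 in MS2 versus Con (1634 to 4171) and 2211 in MS5 versus MS2 (1535 to 5395), and those also over 1.5-fold 127 (61 to 623), 13 (7 to 522) and 72 (15 to 592). Within slide 1, 33 probesets in MS5 versus Con and 40 in MS5 versus MS2 passed an adjusted p of 0.05, and no subunit was among them. No paired analysis was possible because which pups were littermates is not given by array.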
